A study of Mus musculus with 63 samples.

Results

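A set of 10 genes of the endoplasmic calcium store was followed. They were the ryanodine receptors Ryr1, Ryr2 and Ryr3, the IP3 receptors Itpr1, Itpr2 and Itpr3, the SERCA pump gene Atp2a2, and the store-operated entry genes Stim1, Stim2 and Orai2. They are machinery of the spine apparatus and were picked by symbol from the deposited count tables, and all 10 of 10 symbols were found among the 55291 in those tables. In each of the 20 comparisons described here, all 10 passed the filter on low counts.

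Entorhino-hippocampal tissue cultures were made from mice of either sex at postnatal days 3 to 5 and kept for at least 18 days in vitro. Synpo+/+ cultures came from C57BL/6J mice, and Synpo-/- cultures from B6.129-Synpo tm1Mndl/Dllr mice, a germline line without the actin-binding protein synaptopodin that had been backcrossed at least 10 times. In an entorhinal cortex lesion (ECL) the perforant path, the main entorhinal input to dentate granule cells and CA3 pyramidal cells, was transected with a scalpel, and tissue was taken 3 days later (3 dp ECL). The regional experiment sequenced poly(A) RNA of 39 dissected areas. It held 4 control and 7 lesioned dentate gyrus (DG) libraries and 2 control and 3 lesioned CA3 libraries of Synpo+/+ cultures. Synpo-/- cultures gave 7 control and 4 lesioned DG libraries and 6 control and 6 lesioned CA3 libraries. The Synpo-coIP experiment sequenced 24 libraries from lysates of 6 cultures each, in which RNA held on beads by an anti-synaptopodin antibody was compared with the precleared lysate, the input. There were 5 such pairs from control and 5 from lesioned Synpo+/+ cultures, and 2 pairs labelled Synpo-/- whose lesion state the labels do not give. All cultures lack the projections that reach the hippocampus from outside the slice, and the RNA is that of all cell types in the tissue.

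Neurons keep a large store of calcium in the endoplasmic reticulum, which in many dendritic spines forms stacked cisternae, the spine apparatus, with synaptopodin as its marker protein. SERCA pumps fill the store, ryanodine receptors and IP3 receptors release it upon a rise in cytosolic calcium or in IP3, and STIM proteins sense an emptied store and open ORAI channels of the plasma membrane. This store shapes calcium signals at synapses and takes part in synaptic plasticity.

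Total counts ranged from 14055930 to 46043990 per regional library and from 11601154 to 53682143 per library of the Synpo-coIP experiment. Levels are given as CPM, the count of a gene per 1000000 counts of effective library size, and comparisons of levels between genes use CPM per kilobase of annotated exon. Synpo, the gene inactivated in the Synpo-/- line, was counted in every library of that label. In each area and lesion state its mean was higher with that label, with 22.5 ± 2.36 CPM (SD, n = 4) in Synpo+/+ DG controls and 51.8 ± 9.31 CPM (n = 7) in those labelled Synpo-/-. In the input it ranged from 26.4 to 29.9 CPM with that label and from 20.3 to 32.2 CPM in Synpo+/+ controls. In the coIP it was lower with that label, at 25.7 and 30.7 CPM, than in lesioned Synpo+/+ cultures at 35.1 to 41.2 CPM, and overlapped Synpo+/+ controls at 27.0 to 42.2 CPM. The deposited counts therefore do not check this label, and every genotype difference below rests on the label alone. A lesioned Synpo+/+ DG library, replicate 5, stood apart from its group. Its count for Prox1, a granule cell transcription factor, was 15.5 CPM, against 120 to 217 CPM in the 21 other DG libraries and 12.7 to 44.0 CPM in the 17 CA3 libraries. Its summed CA3 pyramidal cell markers reached 617 CPM, within the 347 to 658 CPM of CA3, whereas the other DG libraries had 114 to 264 CPM. Results of the store genes that include this library are given with and without it. In the remaining libraries the labelled area and the 6 granule cell markers went together, with 287 to 631 CPM summed in DG and 41.5 to 128 CPM in CA3.

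The ryanodine receptor genes are long. Ryr1, known from skeletal muscle, lies at chr7:29003344-29125179 (GRCm38, minus strand) with 21.84 kb of exon. Ryr2, the main form in heart and brain, lies at chr13:11553102-12106945 (minus strand) with 28.79 kb, and Ryr3 at chr2:112631355-113217096 (minus strand) with 18.98 kb. Itpr1, the principal neuronal IP3 receptor gene, occupies chr6:108213096-108551109 (plus strand) with 18.32 kb of exon. Itpr2 and Itpr3 occupy chr6:146108299-146502223 (minus strand, 14.8 kb) and chr17:27057304-27122223 (plus strand, 9.02 kb). Atp2a2, which encodes SERCA2, lies at chr5:122453513-122502225 (minus strand, 6.08 kb). The store sensors lie at chr7:102267806-102437319 (Stim1, plus strand, 10.37 kb) and chr5:53998499-54121057 (Stim2, plus strand, 5.13 kb), and the channel gene Orai2 at chr5:136147459-136170713 (minus strand, 6.08 kb). Counting ignored strand, and 5 of the genes share exon bases with a neighbour, at most 4.83% of the exon bases in Ryr3 (with Aven) and 4.19% in Ryr1 (mostly with the antisense gene Gm26604).

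RefSeq promoter windows, 250 bases before to 50 after the annotated start, were matched for 7 of the 10 genes (GRCm38.p6). The windows of Stim2, Ryr2 and Orai2 are printed because these genes were lower in DG than in CA3 in at least 1 comparison below. Capitals mark matches on either strand to 5 motifs, which were the GC box (letters GGGCGG), the CCAAT box, the CRE half-site (letters TGACG), the TATA box (letters TATAAA) and the E-box (letters CAGCTG), and neighbouring matches may overlap.
Stim2, chr5:53998273-53998572, plus strand: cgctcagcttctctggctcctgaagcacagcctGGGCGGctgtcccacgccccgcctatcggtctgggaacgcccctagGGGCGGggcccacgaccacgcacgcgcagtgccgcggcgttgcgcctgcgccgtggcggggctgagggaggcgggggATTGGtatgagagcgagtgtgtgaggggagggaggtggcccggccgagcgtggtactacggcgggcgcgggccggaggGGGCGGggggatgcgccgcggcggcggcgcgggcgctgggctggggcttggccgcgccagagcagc
Ryr2, chr13:12106896-12107195, minus strand: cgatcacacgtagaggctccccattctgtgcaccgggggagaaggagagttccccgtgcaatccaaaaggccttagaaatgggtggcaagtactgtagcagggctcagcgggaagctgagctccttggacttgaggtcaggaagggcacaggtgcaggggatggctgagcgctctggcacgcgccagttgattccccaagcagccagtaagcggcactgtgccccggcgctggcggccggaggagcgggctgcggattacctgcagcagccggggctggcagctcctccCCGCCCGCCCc
Orai2, chr5:136170607-136170906, minus strand: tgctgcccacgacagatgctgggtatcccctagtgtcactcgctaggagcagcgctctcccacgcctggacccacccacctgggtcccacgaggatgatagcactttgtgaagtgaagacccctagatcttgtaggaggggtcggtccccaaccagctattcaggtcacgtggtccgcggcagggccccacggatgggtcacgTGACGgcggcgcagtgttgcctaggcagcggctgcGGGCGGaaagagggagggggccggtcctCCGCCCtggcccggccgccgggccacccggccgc
The Stim2 window held 3 GC boxes and 1 CCAAT box, that of Ryr2 held 2 overlapping GC boxes, and that of Orai2 held 2 GC boxes and 1 CRE half-site. Of all 32851 windows of this length, 35.7% held a GC box, 37.4% a CCAAT box, 20.8% a CRE half-site, 13.6% a TATA box and 16.3% an E-box. The letters TATAAA and CAGCTG were in none of the 7 windows, and all 7 held at least 1 GC box. Other forms of the E-box were not searched. The windows of Stim2, Ryr2 and Orai2 held 39, 18 and 24 CpG dinucleotides, with a median of 7 over all windows. These matches describe letters and were not tested as binding sites.

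Within each area, Atp2a2 had the highest level per kilobase and Ryr1 and Itpr3 the lowest. In Synpo+/+ controls Atp2a2 stood at 53.5 ± 3.53 CPM per kb in DG (SD, n = 4) and at 88.9 ± 2.81 CPM per kb in CA3 (n = 2). Stim2 came next, with 10.8 ± 1.89 CPM per kb in DG and 21.5 ± 3.54 CPM per kb in CA3, and its range overlapped that of no other gene of the group in these 2 groups. Below Stim2 in DG, Ryr2 (6.81 ± 0.599 CPM per kb), Orai2 (6.11 ± 0.877) and Itpr1 (5.04 ± 0.903) could not be ranked, since neighbouring ranges overlapped. Stim1 (2.62 ± 0.46 CPM per kb), Ryr3 (1.98 ± 0.222) and Itpr2 (1.95 ± 0.258) formed a lower tier in DG in which neighbours overlapped as well. Ryr1 (0.245 ± 0.0439 CPM per kb) and Itpr3 (0.169 ± 0.0415) were above 0 in every regional library, at 1.54 to 6.25 CPM and at 0.429 to 2.47 CPM over these libraries. In CA3 Ryr3 reached 3.7 ± 0.31 CPM per kb and stood above Stim1 (2.49 ± 0.263), without overlap.

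Of the ryanodine receptor counts per kilobase, Ryr2 held 75.4 ± 1.15% in Synpo+/+ control DG and 66.5 ± 0.498% in CA3. Ryr3 held 21.9 ± 1.28% in DG and 31.8 ± 0.451% in CA3, and Ryr1 held 2.73 ± 0.553% and 1.67 ± 0.0466%. Among the IP3 receptors, Itpr1 held 70.2 ± 4.03% in DG and 62.8 ± 2.0% in CA3. Itpr2, abundant in glia, held 27.4 ± 3.51% and 33.8 ± 2.16%, and Itpr3 held 2.42 ± 0.83% and 3.4 ± 0.16%.

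**Figure D1:**
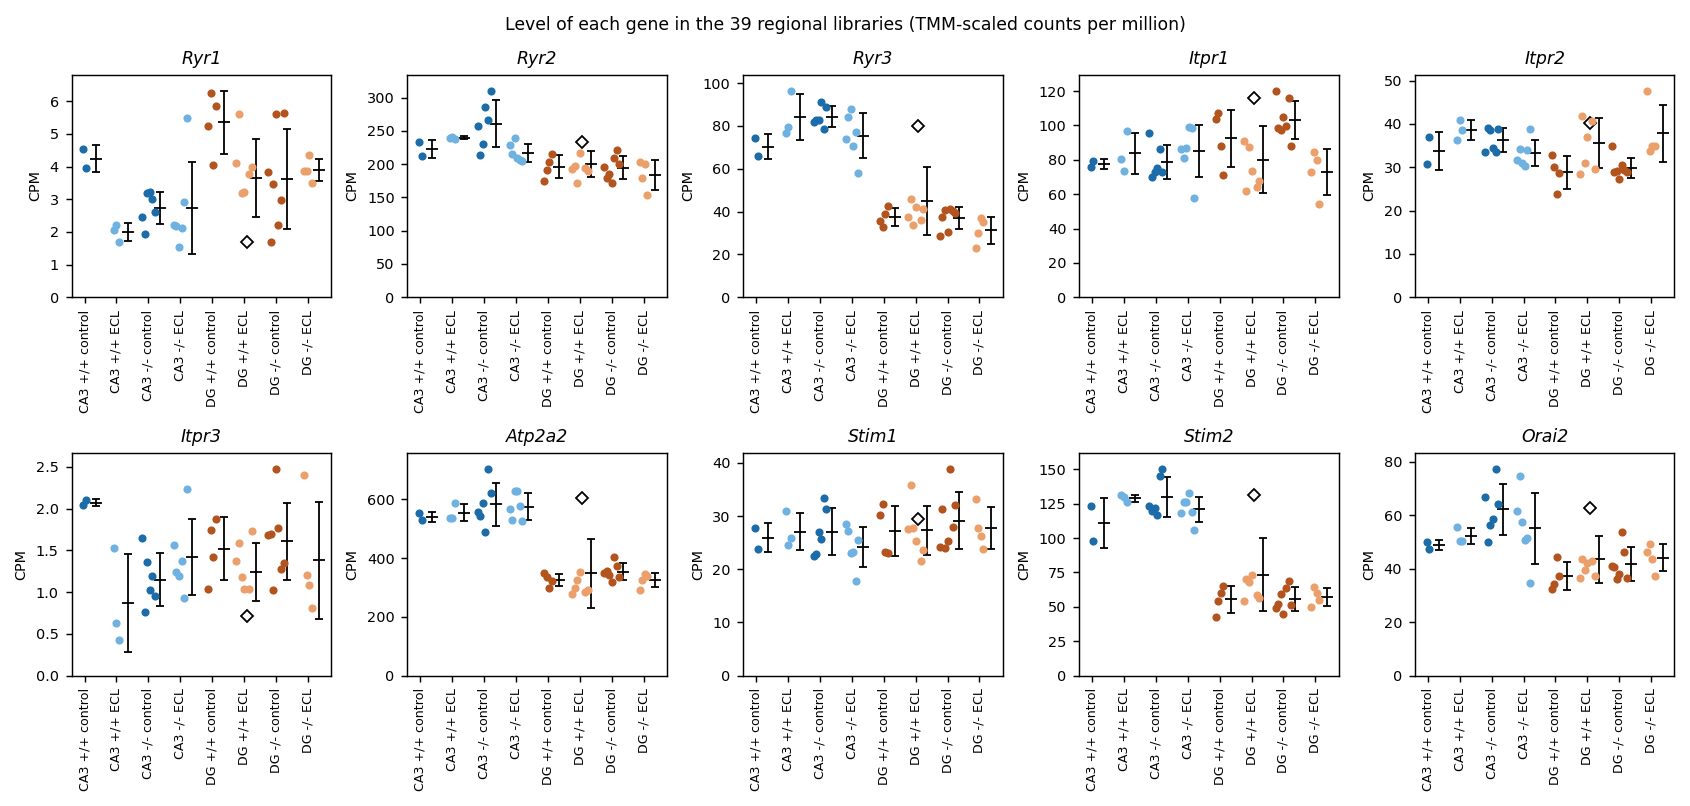
Levels of the 10 store genes in the 39 regional libraries, in CPM, with 1 point per library, the groups on the horizontal axis and a dash with bars beside each group for its mean and SD. Ryr3, Stim2 and Atp2a2 sit lower in DG than in CA3, apart from lesioned Synpo+/+ DG replicate 5, drawn as an open diamond, which lies among the CA3 libraries.

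To see how the store differs between the areas, DG was compared with CA3 within each genotype and lesion state. Ryr3, Stim2 and Atp2a2, a release channel, a store sensor and the pump, were lower in DG in 3 of the 4 comparisons. In Synpo+/+ controls Ryr3 measured 35.7, 33.0, 38.9 and 42.8 CPM in DG against 74.5 and 66.1 CPM in CA3. Stim2 measured 42.4, 54.4, 60 and 64.9 CPM in DG against 123 and 97.7 CPM in CA3. Atp2a2 measured 349, 334, 298 and 321 CPM in DG against 553 and 528 CPM in CA3. For all 3 genes every DG value lay below every CA3 value. In edgeR's quasi-likelihood test, Benjamini-Hochberg adjusted over all genes tested, Ryr3 was lower by a log2 difference of -0.89 (SE 0.142, adjusted p = 0.00172), Stim2 by -0.98 (SE 0.17, adjusted p = 0.00312) and Atp2a2 by -0.72 (SE 0.129, adjusted p = 0.00402). These 3 of 10 store genes were lower in DG and 0 were higher, where 2.75% of all genes tested were called lower and 2.63% higher.

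In controls labelled Synpo-/-, 5 of the 10 were lower in DG and 1 was higher, where 12.5% of all genes were called lower and 13.1% higher. Ryr3 ranged from 28.8 to 41.4 CPM over 7 DG libraries with a median of 39.3 CPM, and from 78.7 to 91.3 CPM over 6 CA3 libraries. Its log2 difference was -1.09 (SE 0.0898, adjusted p = 4.27e-08, edgeR). Stim2 gave -1.12 (SE 0.0934, adjusted p = 4.8e-08) and Atp2a2 -0.61 (SE 0.0739, adjusted p = 4.19e-06), again with no overlap between the areas. Orai2 (-0.47, adjusted p = 0.00135) and Ryr2 (-0.32, adjusted p = 0.0106) were also lower in DG by edgeR's test, with overlapping ranges. Itpr1 was the exception, higher in DG by 0.50 (SE 0.0904, adjusted p = 0.000391, edgeR), from 88.1 to 120 CPM in DG against 70.0 to 95.8 CPM in CA3.

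In lesioned cultures labelled Synpo-/-, Ryr3, Stim2 and Atp2a2 were lower in DG and 0 store genes were higher, where 6.24% of all genes were called lower and 7.37% higher. Ryr3 measured 22.9, 29.9, 37.2 and 35.0 CPM in DG against 58.2 to 88.0 CPM in CA3, a log2 difference of -1.26 (SE 0.147, adjusted p = 4.6e-05, edgeR). Stim2 gave -1.07 (SE 0.107, adjusted p = 1.31e-05) and Atp2a2 -0.81 (SE 0.104, adjusted p = 0.000101) by the same test, and neither overlapped. Itpr1 did not pass the test here (log2 difference -0.21, SE 0.153, adjusted p = 0.457). Leaving out CA3 replicate 6 of this group raised the count to 5, adding Orai2 (log2 difference -0.42) lower and Ryr1 (0.83) higher in DG. The share of all genes called without that library is not given here.

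In lesioned Synpo+/+ cultures only Ryr3 was called with all libraries, lower in DG by -0.84 (SE 0.196, adjusted p = 0.0444, edgeR), where 0.508% of all genes were called lower and 1.54% higher. DG replicate 5 held 79.9 CPM of Ryr3, 131 CPM of Stim2 and 606 CPM of Atp2a2, whereas the other 6 libraries of its group held 33.8 to 45.7, 54.5 to 73.0 and 278 to 352 CPM. Without this library 6 store genes were called, where 12.3% of all genes were called lower in DG and 7.51% higher. Ryr3 (-1.05), Stim2 (-0.98), Atp2a2 (-0.82), Orai2 (-0.33) and Ryr2 (-0.26) were then lower, with adjusted p of 2.24e-06, 4.94e-06, 1.13e-05, 0.0242 and 0.0471 by edgeR's test. Ryr1 was higher in DG without it, by 1.04 (SE 0.23, adjusted p = 0.00358, edgeR), at 3.18 to 5.61 CPM in DG and 1.68, 2.06 and 2.22 CPM in CA3. Leaving out any 1 of the 9 other libraries of this comparison instead gave 0 called store genes, and the shares of all genes called in these fits are not given here.

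Over the 38 libraries other than DG replicate 5, Ryr3 ranged from 22.9 to 45.7 CPM in the 21 DG libraries and from 58.2 to 96.3 CPM in the 17 CA3 libraries. Stim2 ranged from 42.4 to 73.0 CPM in DG and from 97.7 to 150 CPM in CA3, and Atp2a2 from 278 to 404 CPM in DG and from 488 to 702 CPM in CA3. All 21 DG libraries thus lay below all 17 CA3 libraries for each of these 3 genes. The share of all genes that separate the areas in this way is not given here. For Ryr2, 17 of the 21 DG libraries lay below every CA3 library, and for Orai2, Itpr2, Stim1, Itpr1, Ryr1 and Itpr3 the areas overlapped widely. Summed neuronal markers also differed, from 2770 to 5130 CPM in these DG libraries and from 4320 to 8460 CPM in CA3, with all markers detected in every group. In tissue, fewer cells of a type and less RNA per cell cannot be told apart, and the part of cell composition in these differences was not tested.

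**Figure D2:**
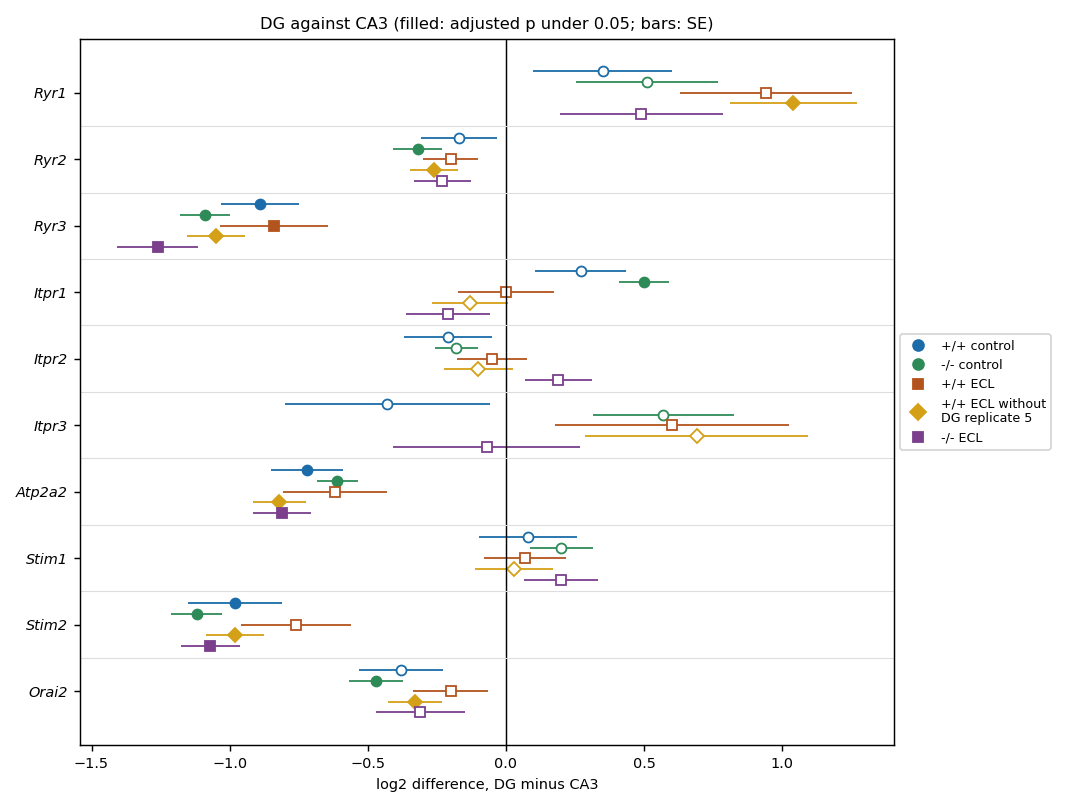
Log2 difference of DG minus CA3 for each of the 10 store genes in 4 comparisons of edgeR, and in lesioned Synpo+/+ cultures also without DG replicate 5, with bars of 1 SE and filled symbols where the adjusted p was under 0.05. Ryr3, Stim2 and Atp2a2 lie left of 0 in every comparison, between -0.61 and -1.26.

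Other calcium store genes were compared through a list of 79 genes for IP3 production, junctions, luminal calcium binding, leak, extrusion and store-operated entry. In Synpo+/+ controls 5 of 79 were higher in DG and 7 lower, where 2.63% and 2.75% of all genes were. In those labelled Synpo-/- 9 of 76 were higher and 24 lower, where 13.1% and 12.5% of all genes were. Trpc6, a cation channel gene (log2 difference 2.27, adjusted p = 1.13e-05, edgeR), Atp2b4, a plasma membrane calcium pump (2.16, adjusted p = 8.44e-05), and Jph1, a junction protein (1.20, adjusted p = 0.00348), led those higher in Synpo+/+ control DG. Fkbp1a, which binds ryanodine receptors (-0.87, adjusted p = 0.00137, edgeR), Homer3, a scaffold that binds IP3 receptors (-1.47, adjusted p = 0.00177), and Plcb1, a phospholipase that makes IP3 (-0.86, adjusted p = 0.00206), led those lower. In lesioned Synpo+/+ cultures 5 of 79 were higher and 5 lower, where 1.54% and 0.508% of all genes were. Without DG replicate 5 these counts became 9 and 20, where 7.51% and 12.3% of all genes were called. In lesioned cultures labelled Synpo-/- 9 of 79 were higher and 12 lower, where 7.37% and 6.24% of all genes were.

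Among the 11503 other genes compared over the 39 regional libraries, those with patterns closest to a store gene on the log2 CPM scale were named by Pearson's r, as a description, since the libraries share 2 areas and their cell composition. Stim2 was closest to Dock9 (r = 0.982), Prkca (0.98) and Raver2 (0.976), and Atp2a2 to Ppp3cb (0.979), App (0.976) and Hapln4 (0.969). Ryr3 was closest to Dmxl2 (0.977), Fstl5 (0.968) and Prkg1 (0.968). For Ryr2, Atf6 (0.861) and the glutamate receptor gene Grin2b (0.843) were among the closest. Itpr2 was closest to the oligodendrocyte lineage genes Olig1 (0.768) and Olig2 (0.766) and the glial potassium channel gene Kcnj10 (0.761). The closest gene was Strbp for Itpr1 (0.778), Fam57b for Stim1 (0.861), Josd1 for Orai2 (0.887), Gm43316 for Ryr1 (0.816) and 8030445P17Rik for Itpr3 (0.65), and the last 2 members have few counts. Over the 38 libraries without DG replicate 5, the genes named here stayed among the 3 closest, with r of 0.626 to 0.982.

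The lesion was then compared with control within each area and genotype. Of the 10 store genes, 1 changed in 1 of these comparisons, Itpr1 in DG labelled Synpo-/-, where 8.53% of all genes were called in either direction. Its 7 controls ranged from 88.1 to 120 CPM with a median of 99.4 CPM, and the 4 lesioned libraries held 73.0, 84.6, 80.0 and 54.0 CPM. Every lesioned value lay below every control. The log2 difference was -0.55 (SE 0.123, adjusted p = 0.0106, edgeR), and the call held upon leaving out each of the 11 libraries. In the same comparison the other 9 store genes had log2 differences between -0.29 and 0.29, of which Itpr2 had 0.29 (SE 0.106, adjusted p = 0.103). Summed microglia markers ranged from 198 to 339 CPM in these controls and from 423 to 517 CPM after the lesion, and astrocyte markers from 3000 to 3610 and from 5080 to 6610 CPM. Neuronal markers overlapped, at 3350 to 5130 CPM and 2770 to 4170 CPM, and the part of these cell types in the Itpr1 value was not tested.

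In Synpo+/+ DG, 0 of the 10 store genes were called at 3 dp ECL, where 12.2% of all genes were. Itpr1 measured 104, 107, 88.0 and 70.9 CPM in controls and 61.8 to 116 CPM with a median of 73.5 CPM after the lesion. Its log2 difference was -0.23 (SE 0.164, adjusted p = 0.325, edgeR) with all libraries and -0.36 (SE 0.134, adjusted p = 0.0815) without replicate 5, the library with 116 CPM. Stim2 gave 0.37 (SE 0.203, adjusted p = 0.211) with replicate 5 and 0.16 (SE 0.122, adjusted p = 0.387) without it. Ryr1 gave -0.59 (SE 0.247, adjusted p = 0.116) with it and -0.47 (SE 0.19, adjusted p = 0.103) without it. At an unadjusted p under 0.05, 1 store gene passed with all libraries, where 7823 of 23720 genes did.

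The difference of the lesion effect between the labelled genotypes in DG was tested directly. The interaction for Itpr1 was -0.35 on the log2 scale (SE 0.221, adjusted p = 0.504, edgeR) and -0.25 (SE 0.196, adjusted p = 0.652) without replicate 5, so the Itpr1 change is not shown to differ between genotypes. None of the 10 was called, where 0.00381% of all genes were. At an unadjusted p under 0.05, 1 store gene passed with all libraries (Ryr3, log2 interaction -0.55), where 2730 of 26245 genes did. Without replicate 5 Ryr3 gave -0.36 (SE 0.182, unadjusted p = 0.0601, adjusted p = 0.595, edgeR) and no longer passed.

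In Synpo+/+ CA3, 0 store genes were called, where 1.78% of all genes were. Ryr1 measured 4.53 and 3.95 CPM in controls and 2.06, 2.22 and 1.68 CPM after the lesion, without overlap. Its log2 difference of -1.20 (SE 0.284) had an adjusted p of 0.0612 by edgeR's test, 0.0499 by DESeq2 and 0.0156 without a filter on low counts. In CA3 labelled Synpo-/- Ryr1 differed by 0.03 (SE 0.279, adjusted p = 0.993, edgeR), and 0 store genes were called, where 0.077% of all genes were. The CA3 interaction of genotype with lesion called 0 of 26821 genes (0%) by edgeR, with 4589 at an unadjusted p under 0.05. It gave 1.19 (SE 0.458, adjusted p = 0.206) for Ryr1 and 1.67 (SE 0.56, adjusted p = 0.168) for Itpr3. Ryr1 had few counts per CA3 library, 66 and 69 in Synpo+/+ controls, 39 to 56 in lesioned Synpo+/+ cultures and 28 to 156 with the Synpo-/- label. The part of counting error in its values was not tested.

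In the whole-culture input of the Synpo+/+ coIP experiment, 0 store genes were called between lesioned and control lysates, where 5.61% of all genes were. Stim2 was nearest to the threshold, at 50.2, 57.3, 55.4, 56.0 and 58.5 CPM after the lesion and 40.8, 46.2, 54.3, 46.0 and 45.4 CPM in controls (log2 difference 0.25, SE 0.088, adjusted p = 0.124, edgeR). Itpr1 differed by -0.03 (SE 0.0771, adjusted p = 0.895), in lysates of whole cultures in which both areas are mixed.

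Of the wider list, 6 genes rose and 1 fell of 78 in Synpo+/+ DG, where 7.86% and 4.31% of all genes did. Without replicate 5 the counts were 6 and 2, where 13.8% of all genes were called in either direction. With the length trend removed they were 3 and 4, where 3.56% of all genes rose and 6.22% fell. In DG labelled Synpo-/- 4 rose and 3 fell of 79, where 5.17% and 3.36% of all genes did. S100a1, which binds ryanodine receptors, was first among those that rose in both (log2 difference 0.75, adjusted p = 0.00141, and 0.68, adjusted p = 0.000233, edgeR), and gave 0.77 (adjusted p = 9.7e-05) in Synpo+/+ DG without replicate 5. Itpkb, an IP3 kinase, rose in DG labelled Synpo-/- (0.69, adjusted p = 0.00183), and Homer2, a Homer scaffold (-0.41, adjusted p = 0.0243), and Hsp90b1, a luminal chaperone (-0.40, adjusted p = 0.0316), fell. In CA3, 2 of 76 rose in Synpo+/+, Pdia3 (0.76, adjusted p = 0.0354) and Fkbp1a (0.66, adjusted p = 0.0401), but neither with the length trend removed, and 0 of 77 passed in that labelled Synpo-/-. In the input 3 of 71 fell, Itpka (-0.41, adjusted p = 0.0206), Calm3 (-0.24, adjusted p = 0.0394) and Pdia3 (-0.81, adjusted p = 0.0435).

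**Figure D3:**
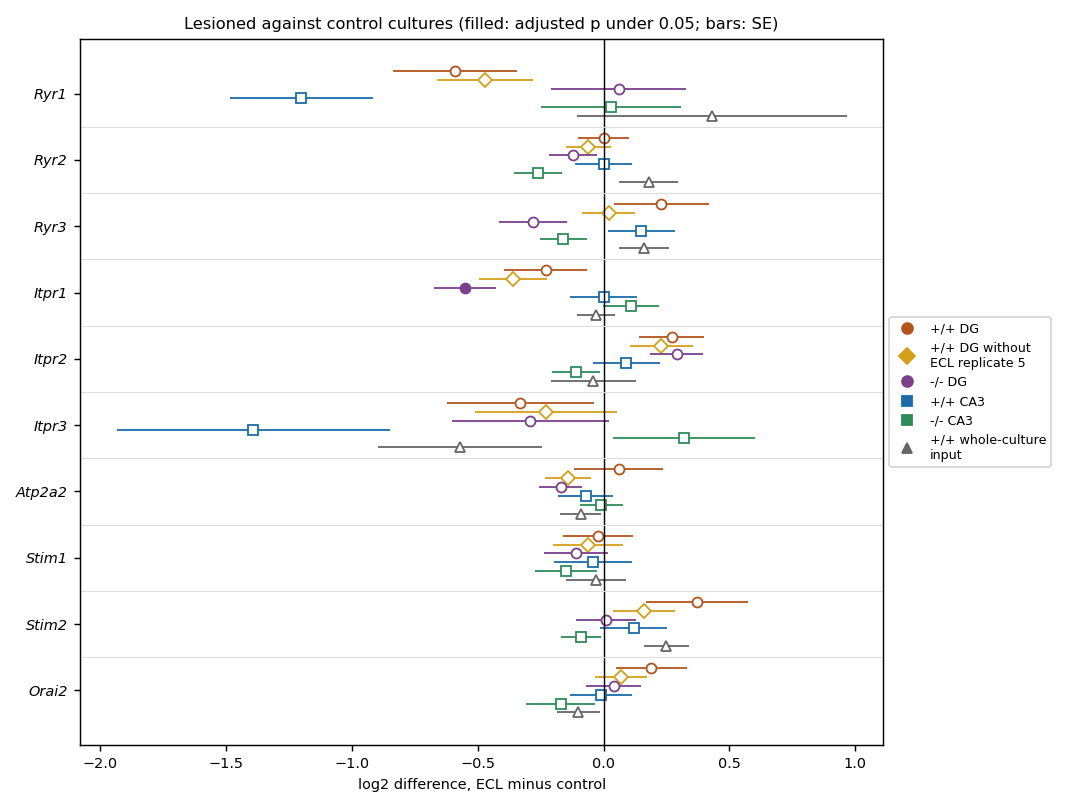
Log2 difference of 3 dp ECL minus control for each of the 10 store genes in 5 comparisons of edgeR, and in Synpo+/+ DG also without ECL replicate 5, with bars of 1 SE and a filled symbol where the adjusted p was under 0.05. Only Itpr1 in DG labelled Synpo-/- is filled, at -0.55.

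The labelled genotypes were compared within area and lesion state, and 0 of the 10 store genes were called in any of the 4 comparisons. Over all genes, 0.0166% were called in control DG, 0.00413% in control CA3, 0.0166% in lesioned DG and 0.00891% in lesioned CA3. In the same order, 3746 of 24143, 3959 of 24203, 859 of 24100 and 1383 of 22447 genes had an unadjusted p under 0.05. Ryr1 had an unadjusted p under 0.05 in control DG (log2 difference of Synpo-/- label minus Synpo+/+ of -0.58, SE 0.271, adjusted p = 0.314, edgeR) and in control CA3 (-0.69, SE 0.256, adjusted p = 0.219). Ryr1 measured 5.24, 6.25, 4.06 and 5.86 CPM in Synpo+/+ control DG and 1.70 to 5.63 CPM in that labelled Synpo-/-, and these ranges overlapped. So had Itpr3 in control CA3 (-0.89, SE 0.362, adjusted p = 0.25) and Ryr3 in lesioned DG (-0.55, SE 0.202, adjusted p = 1.0, and -0.35, SE 0.127, without replicate 5). Atp2a2, Stim2 and Ryr2 differed by 0.09 (SE 0.0807), -0.03 (SE 0.132) and -0.04 (SE 0.091) in control DG. Of the wider list of 79 genes, 0 were called in any of the 4 comparisons.

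The Synpo-coIP was compared with its input to ask which transcripts are held with synaptopodin. In control Synpo+/+ cultures 9 of the 10 store genes were higher in the coIP and 0 lower, where 29.6% of all genes were called higher and 25.5% lower. Ryr2 measured 117, 135, 194, 135 and 141 CPM in the coIP and 50.8, 71.1, 83.4, 64.5 and 70.3 CPM in the input of the same lysates. Its log2 difference was 1.10 (SE 0.145, adjusted p = 1.75e-05, edgeR), without overlap of the fractions. Itpr1 measured 195, 199, 223, 227 and 220 CPM in the coIP and 107, 122, 129, 128 and 116 CPM in the input, a log2 difference of 0.84 (SE 0.0836, adjusted p = 1.68e-06). Atp2a2 measured 846, 687, 726, 592 and 670 CPM against 553, 440, 439, 407 and 419 CPM (0.66, SE 0.108, adjusted p = 0.000126). The fractions of these 3 genes did not overlap. Ryr3 (0.73), Itpr2 (0.88), Stim1 (0.66) and Orai2 (0.47) were higher without overlap too, with adjusted p of 0.000363, 6.21e-05, 0.000118 and 0.000514 by edgeR's test, and Stim2 (0.44, adjusted p = 0.00444) was higher with overlap.

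The remaining pair had few counts. Ryr1 measured 0.747, 0.993, 1.07, 0.956 and 1.71 CPM in the coIP and 0.849, 0.718, 0.0455, 0.363 and 0.405 CPM in the input, from 1 to 34 counts per library. Its call (log2 difference 1.19, SE 0.459, adjusted p = 0.0388, edgeR) was lost upon leaving out any 1 of 6 libraries, coIP or input replicate 3, 4 or 5, with adjusted p of 0.0551 without input replicate 3, 0.0835 and 0.0816 without input replicates 4 and 5, and 0.0606, 0.0539 and 0.111 without coIP replicates 3, 4 and 5. Itpr3 did not pass, with 0.22 (SE 0.29, adjusted p = 0.535).

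In lesioned Synpo+/+ cultures 9 of 10 were again higher in the coIP, where 30.5% of all genes were called higher and 27.8% lower. Ryr2 measured 139, 217, 170, 209 and 149 CPM in the coIP and 75.3, 91.9, 72.5, 77.7 and 70.1 CPM in the input (log2 difference 1.21, SE 0.141, adjusted p = 1.02e-05, edgeR). Itpr1 gave 0.90 (SE 0.0947, adjusted p = 5.45e-06), Ryr3 0.89 (SE 0.169, adjusted p = 0.000459) and Atp2a2 0.64 (SE 0.0846, adjusted p = 2.59e-05). Itpr3 measured 1.27, 2.13, 1.87, 2.56 and 2.30 CPM in the coIP and 0.897, 0.316, 0.468, 0.473 and 0.586 CPM in the input, without overlap (1.87, SE 0.323, adjusted p = 0.000219, edgeR). Ryr1 gave 1.14 (SE 0.473) with an adjusted p of 0.0512, which became 0.018 when coIP and input of one lysate were paired as a replicate block and 0.0471 by DESeq2. With the block, all 10 store genes were therefore called in this comparison, and the share of all genes called with it is not given here.

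Whether the enrichment differed between lesioned and control cultures was tested as an interaction, in which 0 genes of 19581 were called (0%) and 434 had an unadjusted p under 0.05. Itpr3 was the single store gene among those at an unadjusted p under 0.05, with 1.69 (SE 0.421, adjusted p = 1.0, edgeR), and the other 9 store genes lay between -0.02 and 0.20. In controls Itpr3 measured 0.922, 0.993, 1.28, 0.592 and 1.01 CPM in the coIP and 0.891, 0.845, 0.637, 0.635 and 1.11 CPM in the input, with overlap.

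The antibody was also used on the 2 lysates labelled Synpo-/-. There 7 of the 10 store genes were higher in the coIP and 0 lower, where 15% of all genes were called higher and 16.4% lower. Ryr2 measured 135 and 148 CPM in the coIP and 83.7 and 71.6 CPM in the input (log2 difference 0.84, SE 0.139, adjusted p = 0.00106, edgeR). Itpr1 measured 164 and 171 CPM against 126 and 112 CPM (0.46, SE 0.132, adjusted p = 0.0205), and Atp2a2 549 and 638 CPM against 433 and 458 CPM (0.38, SE 0.136, adjusted p = 0.0499). For all 3 genes both coIP values exceeded both input values. Ryr3 (0.61), Stim2 (0.50), Itpr2 (0.77) and Ryr1 (1.52) were called as well, with adjusted p of 0.00889, 0.0144, 0.00262 and 0.0146 by edgeR's test. Stim1 (0.40, adjusted p = 0.074), Orai2 (0.22, adjusted p = 0.328) and Itpr3 (0.48, adjusted p = 0.585) did not pass. Leaving out input replicate 1 or input replicate 2 left 3 of 10 called in either case, and the shares of all genes called in these fits are not given here.

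The difference in enrichment between Synpo+/+ controls and the libraries labelled Synpo-/- was tested as an interaction. It called 0 of 20621 genes (0%) by edgeR, with 1511 at an unadjusted p under 0.05. Itpr1 had the smallest p among the store genes, 0.33 more enrichment on the log2 scale in Synpo+/+ (SE 0.151, adjusted p = 0.655, edgeR). The other 9 ranged from -0.37 for Ryr1 (SE 0.737) to 0.23 for Atp2a2 (SE 0.193), all with an adjusted p of at least 0.852. The enrichment of the store genes in Synpo+/+ lysates is thus not shown to exceed that in lysates labelled Synpo-/-.

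**Figure D4:**
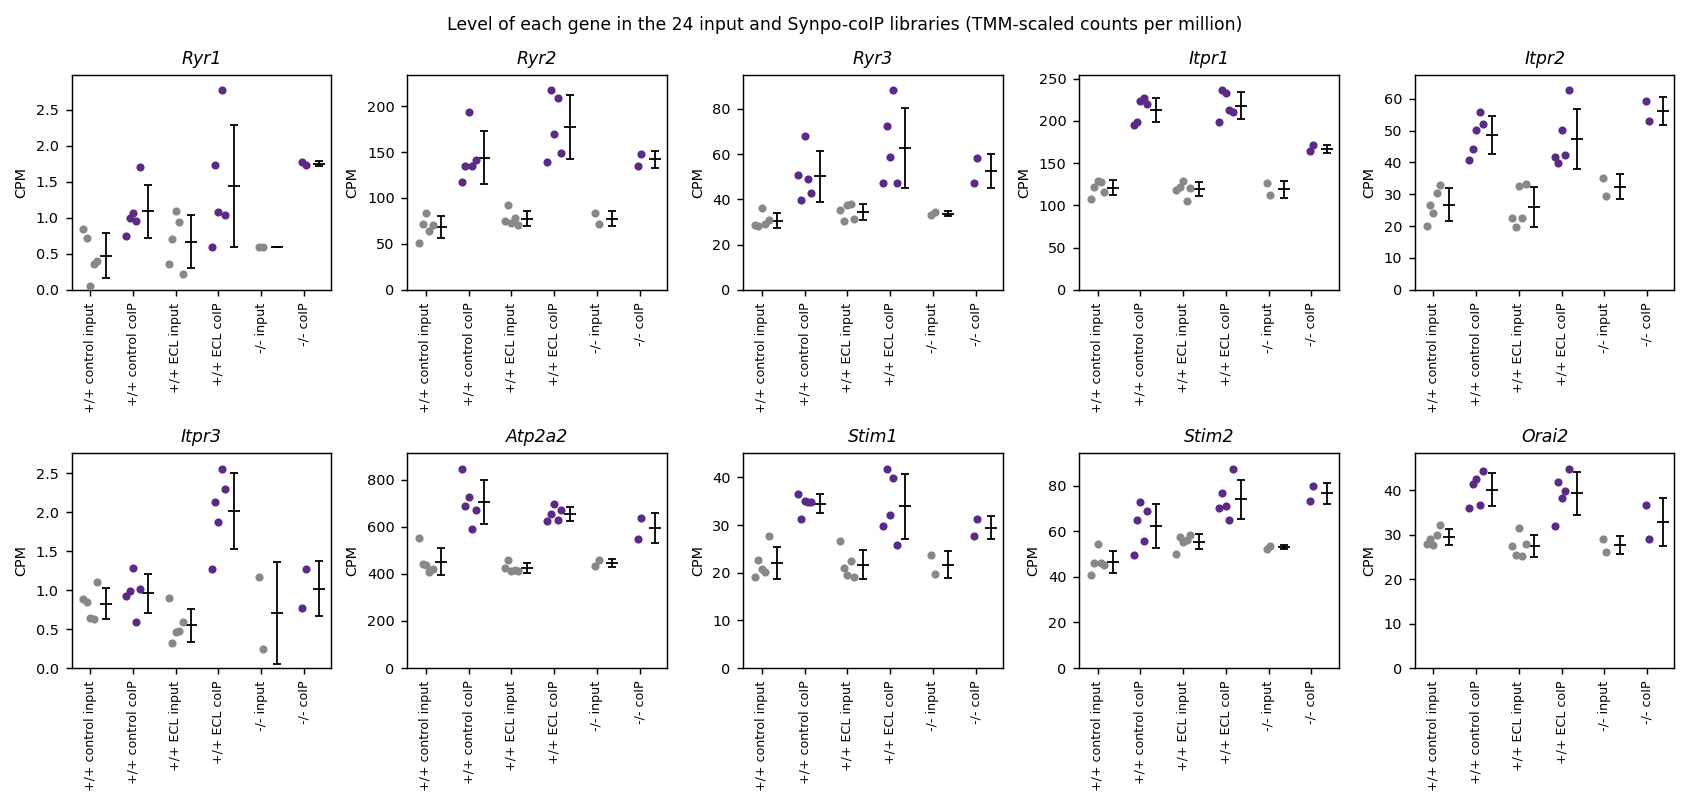
Levels of the 10 store genes in the 24 libraries of the coIP experiment, in CPM, with 1 point per library for input and coIP of each of 3 sets of lysates and a dash with bars for the mean and SD. Ryr2, Itpr1 and Atp2a2 are higher in the coIP than in the input without overlap in all 3 sets, the set labelled Synpo-/- included.

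All 10 store genes are long transcripts, and length moved with the coIP. They have 5.13 to 28.79 kb of exon, against a median of 3.85 kb over the genes tested in control Synpo+/+ lysates. Of all genes of at least 5 kb, 45.4% were called higher in the coIP in control and 45.4% in lesioned Synpo+/+ lysates, and 23.5% in those labelled Synpo-/-. Of genes of at least 20 kb, the class of Ryr1 and Ryr2, 74.1%, 77.1% and 60.2% were called higher, and of genes under 2 kb 19.7%, 23.2% and 9.58%. The median log2 difference of the 10 store genes was 0.70, 0.88 and 0.49 in the 3 comparisons. It was 0.04, 0.02 and 0.02 over all genes and 0.299, 0.303 and 0.184 over genes of at least 5 kb. For genes of 10 to 20 kb, the class of Ryr3, Itpr1, Itpr2 and Stim1, it was 0.491, 0.529 and 0.318. Of that class 64.3%, 65.7% and 36.6% were called higher. For genes of at least 20 kb the median was 0.784, 0.832 and 0.525.

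With the trend of the log2 difference on length removed, 7 store genes were called in control Synpo+/+ lysates, 6 in lesioned ones and 1 in those labelled Synpo-/-, where 29%, 30.5% and 14.5% of all genes were called higher. Atp2a2 (0.52, SE 0.112, adjusted p = 0.00137), Stim2 (0.38, adjusted p = 0.0107), Orai2 (0.33, adjusted p = 0.00416), Ryr2 (0.33, adjusted p = 0.0362) and Itpr1 (0.24, adjusted p = 0.0177) were then called higher in control lysates by edgeR's test, as were Itpr2 (0.37, adjusted p = 0.0213) and Stim1 (0.30, adjusted p = 0.0193). In lesioned lysates Atp2a2 gave 0.54 (SE 0.0782, adjusted p = 7.44e-05), Stim2 0.41, Orai2 0.43, Ryr2 0.37 and Itpr1 0.26, all called. Itpr3 in lesioned lysates gave 1.57 (SE 0.324, adjusted p = 0.00107, edgeR). Ryr3 was called in none of the 3, at 0.11 (adjusted p = 0.447), 0.22 (adjusted p = 0.202) and 0.19 (adjusted p = 0.356). In lysates labelled Synpo-/- Stim2 alone was called (0.49, SE 0.132, adjusted p = 0.0156), and Itpr1 gave 0.04 (SE 0.129, adjusted p = 0.839). With trends on length and GC content both removed, 4 were called in lysates labelled Synpo-/-, Stim2 (0.58), Atp2a2 (0.41), Itpr2 (0.50) and Ryr2 (0.39), with adjusted p of 0.00467, 0.0323, 0.0208 and 0.0453 by edgeR's test. In control Synpo+/+ lysates this removal of both trends ended the call of Orai2 (0.19, adjusted p = 0.067, edgeR). In lesioned ones Stim1 was then called (0.35, adjusted p = 0.0405). With lysates paired and length removed together, a combination chosen after the data were seen, 7, 7 and 2 store genes were called. Shares of all genes called with both trends removed, or with pairing and length together, are not given here.

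Summed cell type markers were compared between the fractions as well. Those of neurons ranged from 4550 to 5900 CPM in the control Synpo+/+ coIP and from 7480 to 8990 CPM in its input, and microglia markers from 182 to 372 and from 219 to 474 CPM. In lesioned Synpo+/+ lysates the neuronal markers ranged from 3850 to 5130 CPM in the coIP and from 6490 to 7890 CPM in the input, and in those labelled Synpo-/- from 4950 to 5510 and from 6840 to 7410 CPM. Markers of CA1 pyramidal cells went the other way, with 95.0 to 145 CPM in the coIP and 68.9 to 95.4 CPM in the input of control lysates, 97.1 to 140 and 67.9 to 79.6 CPM in lesioned ones, and 125 to 136 and 81.7 to 93.9 CPM in those labelled Synpo-/-. So did endothelial markers, at 8.6 to 11.4 CPM in the control Synpo+/+ coIP and 5.72 to 6.8 CPM in its input. They ranged from 6.25 to 9.69 and from 3.76 to 6.35 CPM in lesioned lysates, with overlap. Other principal cell markers overlapped in control lysates, with 162 to 232 and 182 to 281 CPM for CA3 pyramidal cells. Granule cell markers ranged from 56.1 to 96.9 and from 79.0 to 102 CPM there. Astrocyte markers ranged from 17600 to 31900 CPM in the control Synpo+/+ coIP and from 13300 to 21000 CPM in its input, with overlap. The part of cell composition in the enrichment was not tested. All markers of these lists were above 0 in each group.

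Relatives of the store genes were called in shares near or below those of all genes in the Synpo+/+ coIP. In control Synpo+/+ lysates 22 of 71 tested genes of the wider list were higher and 13 lower, where 29.6% and 25.5% of all genes were. In lesioned ones 23 and 17 of 72 were, against 30.5% and 27.8% of all genes, and in those labelled Synpo-/- 16 and 12 of 76, against 15% and 16.4%. With the length trend removed the counts were 20 and 13, 19 and 15, and 13 and 7. All 7 plasma membrane extrusion genes were higher in both Synpo+/+ comparisons and 3 of 7 in the libraries labelled Synpo-/-, among them Atp2b2 in control (0.64, adjusted p = 1.2e-05, edgeR, and 0.19, adjusted p = 0.0535, with the length trend removed) and Atp2b4 in lesioned lysates (0.86, adjusted p = 3.95e-06). Plcg1 (1.13, adjusted p = 5.78e-07, edgeR) and Plcb1 (0.70, adjusted p = 1.07e-05), phospholipases upstream of IP3, were among those higher in control lysates. Plcg1 was also higher in lesioned ones (0.96, adjusted p = 4.15e-06), as was Jph4, a neuronal junctophilin (1.02, adjusted p = 6.43e-06). All 3 tested SERCA relatives and regulators were lower in both Synpo+/+ comparisons, and 3 of 5 tested in the libraries labelled Synpo-/-. Tmx1 gave -0.79 (adjusted p = 5.4e-06, edgeR) in control and -1.04 (adjusted p = 4.19e-06) in lesioned Synpo+/+ lysates. The calmodulin gene Calm2 was lower by -1.54 (adjusted p = 4.51e-07) and -1.62 (adjusted p = 3.53e-06) in Synpo+/+ lysates and by -0.94 (adjusted p = 0.00073) in those labelled Synpo-/-. The 3 comparisons share no library.

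**Figure D5:**
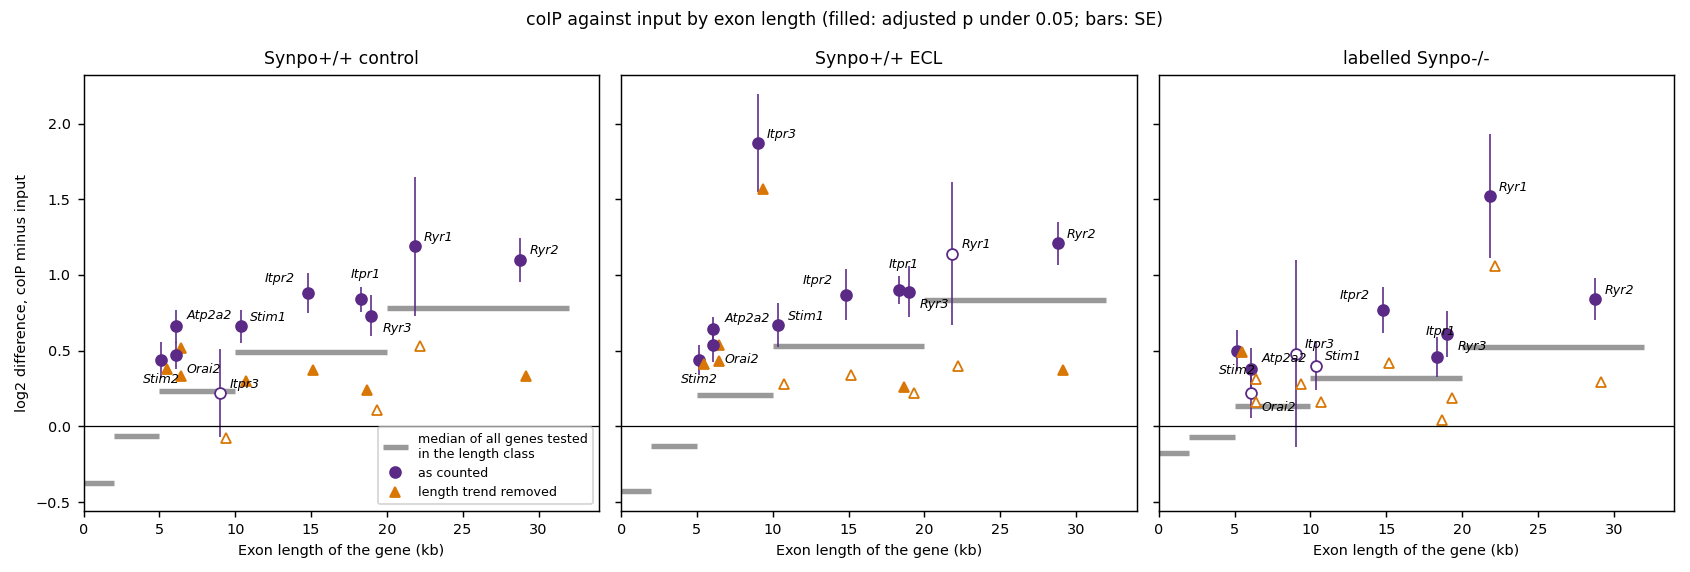
Log2 difference of coIP minus input for the 10 store genes against exon length in kb in 3 sets of lysates, as circles with bars of 1 SE, with triangles for the values after removal of the length trend, filled symbols for an adjusted p under 0.05 and grey bars for the median of all tested genes in each length class. All circles lie above 0, and the grey bars rise with length, from -0.377 for genes under 2 kb to 0.784 for genes of at least 20 kb in control Synpo+/+ lysates.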

How the data were processed

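Counts of 63 libraries were used, 39 regional and 24 of the coIP experiment, and no value column was left unused. Per the authors, adapters were removed by cutadapt 3.5, STAR 2.7.8a aligned the reads to mm10, and exonic reads per gene were summed by featureCounts 2.0.1 on either strand. Raw counts were deposited for 55291 symbols. Versions come from the submitters' processing notes, which list none for the coIP libraries labelled Synpo-/-. Regional libraries came from a low-input kit with PCR and no molecular identifiers. Because total counts of 11601154 to 53682143 set the precision only in part, errors were taken from the spread between libraries, which may be technical where nothing says that samples came from separate preparations.

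Groups were taken from the labels. Each comparison used the libraries of its groups, TMM scaling, the filterByExpr filter and edgeR 4.0.16's quasi-likelihood test in R 4.3.3, with Benjamini-Hochberg adjustment over all genes tested and a call at an adjusted p under 0.05. SE is the log2 difference divided by the square root of F. Tested on simulated data, the procedure recovered 187 of 200 genes changed 4-fold in coIP against input of control Synpo+/+ lysates (17950 genes tested), with 11 unchanged genes called, and 168 and 5 for the lesion in Synpo+/+ DG (22748 genes tested). It recovered 141 of 200 for the lesion in Synpo+/+ CA3 and fewest, 106, for the CA3 interaction of genotype with lesion. Changes smaller than 4-fold, the size of most differences of the store genes, were not simulated. Length trends were removed with a lowess curve (span 0.3) of each library's log2 deviation on log exon length, entered as an offset.

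The 10 members, the 79 relatives and the marker lists were chosen with earlier results of these data known. Named are the members, up to 3 relatives per direction and comparison by smallest p, the 3 genes with the closest pattern (1 of them is not reported here), Synpo, and markers. CoIP and input of one number were taken to come from one lysate, and deviations of same-numbered libraries correlated in every pair (r of 0.313 to 0.679 in control and 0.143 to 0.716 in lesioned Synpo+/+ lysates, and 0.118 in those labelled Synpo-/-). The same-numbered input was not the best match for control coIP 2 and lesioned coIP 1 and 2. Input titles labelled Synpo-/- cross preparation and replicate number, and the preparation number was used. With 2 pairs, both have the same r by construction. Alternatives were DESeq2 1.42.0, fits that kept genes of low counts, scaling by RLE, removal of length or of length and GC trends, a replicate block, and leaving out each library. No 2 libraries of a group held identical values. Sequences of promoters are from RefSeq, and exon lengths and loci from the GENCODE annotation deposited with the counts.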

Additional observations from a re-analysis of the deposited data

Results flagged for a closer look

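A library was marked where it was the highest or lowest of its group of 4 to 10 and its gap to the next library exceeded Dixon's 95% limit for the group's range. This occurred in 9 of 100 groups tested over the 10 genes, and chance marks about 1 in 20. Of the 9, 4 fell in lesioned Synpo+/+ DG replicate 5, the library with CA3 markers. Its level of Ryr3 was 79.9 CPM (33.8 to 45.7 CPM in the other 6 libraries), that of Stim2 131 CPM (54.5 to 73.0), that of Atp2a2 606 CPM (278 to 352) and that of Orai2 62.6 CPM (36.3 to 43.5).

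Ryr1 stood at 5.47 CPM in lesioned CA3 replicate 6 labelled Synpo-/-, against 1.54 to 2.90 CPM in the other 5 libraries of its group. Itpr2 stood at 47.6 CPM in lesioned DG replicate 1 labelled Synpo-/-, against 33.7 to 35.0 CPM in the other libraries, and at 34.8 CPM in control DG replicate 1 with this label, against 27.4 to 30.5 CPM. Atp2a2 stood at 459 CPM in input replicate 2 of lesioned Synpo+/+ cultures, against 413 to 423 CPM, and at 553 CPM in input replicate 1 of control Synpo+/+ cultures, against 407 to 440 CPM. The causes of these values were not tested.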

How the results depend on the processing

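Of 3500 alternative values for single store genes, 3417 kept their side of the threshold, 55 lost a call, 28 gained one and 0 reversed a call. Values called in neither fit were counted as kept even where their sign changed. An example is Itpr3 in the coIP of control Synpo+/+ lysates, at 0.22 and at -0.44 with length and GC trends removed. Of 350 alternative counts of called store genes, 325 lay within 1.5 times the count in the report. In coIP against input labelled Synpo-/-, 7 called genes became 1 with the length trend removed, 4 with length and GC trends removed and 2 with the replicate block and length together, and 3 to 7 upon leaving out 1 library each. For the lesion in Synpo+/+ CA3, 0 became 1 by DESeq2 and 1 without the filter. For the lesion in DG labelled Synpo-/-, 1 became 2 with the length trend removed (Itpr2 added) and 0 with the replicate block, where Itpr1 gave a log2 difference of -0.61 (adjusted p = 0.0509, edgeR). For DG against CA3 in lesioned Synpo+/+ cultures, 1 became 3 by DESeq2, 2 without the filter, 2 with the length trend removed and 4 with the replicate block, and 0 to 6 upon leaving out 1 library each, the 6 without DG replicate 5. For the same areas in lesioned cultures labelled Synpo-/-, 3 became 5 with the replicate block and 3 to 5 upon leaving out 1 library each, the 5 without CA3 replicate 6. The cause of these changes was not tested. Some settings also moved the median log2 difference of all genes by over 0.1. For the lesion in Synpo+/+ DG it shifted by -0.30 by DESeq2, -0.26 without the filter and -0.14 with the length trend removed, and in Synpo+/+ CA3 by -0.22, -0.23 and -0.13, so differences of the store genes under these settings are relative to that shift. It shifted by 0.15 to 0.31 in the genotype-by-lesion interactions and by 0.17 or less in size in all other comparisons. Labels of regional libraries share only a number and do not say whether DG and CA3 came from one culture. In no regional comparison with 3 or more pairs did every pair of deviations correlate above 0.1. Between DG and CA3 of controls labelled Synpo-/-, r ranged from 0.0766 to 0.48, so a pairing there is not settled. The block is given for regional libraries only as an alternative. It also ended the Atp2a2 call in Synpo+/+ control DG against CA3 (adjusted p = 0.366), while in the coIP comparisons it changed no call other than that of Ryr1. Ryr1 and Itpr3, with few counts per library, are limited by depth, and the 2 lysate pairs labelled Synpo-/- and the 2 Synpo+/+ CA3 controls by their number.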
